A study of Mus musculus with 16 samples.

Results

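The let-7 guide strands and miR-98 form 1 family of miRNAs, of which 9 were measured here: let-7a, b, c, d, e, f, g and i, each as its 5p strand, and miR-98-5p. They were picked out by name, with earlier results of these data known. They make up 9 of the 611 mouse miRNAs on the arrays, and all 9 were among the 266 miRNAs tested. A miRNA was tested where all arrays of 1 or more groups had detected it. MiRNAs are short RNAs that guide repression of messenger RNAs, and the bases at their 5′ end, the seed, largely decide which messages they bind. The let-7 family is conserved across animals, accumulates as cells differentiate, and represses growth and stem cell genes such as Hmga2, Ras genes and Lin28, whose protein in turn blocks the maturation of let-7 precursors. In airway disease the family has been studied because the message of the allergic cytokine IL-13 carries a let-7 site.

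Total RNA of whole lungs from BALB/c mice, 8 to 12 weeks old, was hybridised to 16 Agilent 1-colour arrays. The question addressed by the groups is which lung miRNAs differ in allergic airways disease and after glucocorticoid treatment. PBS/PBS mice (2 arrays) received 1 mg of the aluminium adjuvant Alhydrogel alone on day 0 and, per the labels, PBS into the airways on days 12 to 15. PBS/OVA mice (4 arrays) also received adjuvant alone and were then given 10 μg of ovalbumin (OVA, an egg white protein used as allergen) into the airways on days 12 to 15. OVA/OVA mice (6 arrays), the allergic group, were injected with 50 μg OVA together with the adjuvant on day 0 and had the same OVA challenges. OVA/OVA DEX mice (4 arrays) were treated like OVA/OVA and in addition had 3 mg/kg dexamethasone, a synthetic glucocorticoid, every second day from day 11. All lungs were taken on day 16, 24 hours after the last challenge. The methods describe an OVA challenge for all mice, whereas the labels, which were followed here, give PBS for PBS/PBS. Nothing in the labels says that the arrays of a group are separate animals, so p-values measure only the spread between these arrays.

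The summed mouse miRNA signal before scaling was 251350 to 940050 per array, and 224 to 301 mouse miRNAs were detected per array. The arrays lay on 2 slides. Both PBS/PBS arrays were on slide 1, and the other groups had arrays on both slides. The labelled tissue held miRNAs of its main cell types: 5 of 5 epithelial miRNAs of the miR-200 family and 2 of 2 endothelial miR-126 strands were tested on these arrays. The 5 leukocyte miRNAs (miR-142-3p, miR-142-5p, miR-150-5p, miR-223-3p, miR-342-3p) had a mean log2 level of 11.24 to 11.66 on OVA/OVA arrays, above the 10.61 to 10.97 of OVA/OVA DEX and the 10.36 to 10.94 of PBS/OVA. Those of red cells (miR-451, miR-144-3p) were at 14.68 to 15.19 after DEX and at 13.32 to 14.02 in OVA/OVA. The level of 4 striated muscle miRNAs was 6.83 to 8.16 on OVA/OVA arrays and 8.07 to 8.60 after DEX, and that of the endothelial strands 12.34 to 12.84 and 13.06 to 13.40. Against OVA/OVA DEX, OVA/OVA had 4 of 5 leukocyte miRNAs called higher, beside 21.1% of all miRNAs tested. Called lower were 2 of 2 of red cells, 2 of 2 of endothelium, 2 of 2 of smooth muscle and 3 of 4 of striated muscle, beside 32.3% of all. Of 6 miRNAs of ciliated epithelium 2 were higher and 3 lower there, and of the 5 of the miR-200 family 1 was higher and 1 lower. In whole lung, fewer cells of a type and less RNA per cell cannot be told apart, and the part of these cell types in the values given here was not tested.

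The sequences are shown because the members differ from each other by only a few bases, which is what each pair of probes on the array has to tell apart. They are RefSeq mature sequences (GRCm38.p6), read 5′ to 3′, with the seed (bases 2 to 8) in capitals.
let-7a-5p: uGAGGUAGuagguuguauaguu
let-7b-5p: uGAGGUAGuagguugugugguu
let-7c-5p: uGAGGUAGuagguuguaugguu
let-7d-5p: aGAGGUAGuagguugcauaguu
let-7e-5p: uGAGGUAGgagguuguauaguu
let-7f-5p: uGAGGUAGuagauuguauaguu
let-7g-5p: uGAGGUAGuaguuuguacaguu
let-7i-5p: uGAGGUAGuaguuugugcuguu
miR-98-5p: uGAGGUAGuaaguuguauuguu

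All 9 were found in the table, all are 22 bases long, and all carry the seed GAGGUAG. RefSeq lists 11 mature mouse miRNAs with this seed, of which these 9 were on the array. Positions are counted from 1 at the 5′ end, with the base of let-7a-5p first. Let-7c-5p (A19G), let-7e-5p (U9G) and let-7f-5p (G12A) differ from let-7a-5p at 1 position. Let-7b-5p (A17G and A19G), let-7d-5p (U1A and U16C), let-7g-5p (G12U and U18C) and miR-98-5p (G11A and A19U) differ at 2. Let-7i-5p, with G12U, A17G, U18C and A19U, differs at 4 and is the most distant member from let-7a-5p. Probes can cross-hybridise between such close relatives, which was not tested, so a level printed for 1 member may hold signal of another.

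The members come from hairpins on several chromosomes (GRCm38.p6 coordinates). Mirlet7a-1 (chr13:48538179-48538272), Mirlet7f-1 (chr13:48537829-48537917) and Mirlet7d (chr13:48536012-48536114) follow each other on the minus strand, with no other RefSeq gene over them. Mirlet7c-2 (chr15:85706603-85706697) and Mirlet7b (chr15:85707319-85707403) lie on the plus strand within the long non-coding gene Lncppara. Mirlet7f-2 (chrX:151912346-151912428) and Mir98 (chrX:151913214-151913321) lie on the plus strand within Huwe1, which encodes a ubiquitin ligase. Mirlet7e (chr17:17830352-17830444, plus strand) is within Spaca6, and Mirlet7g (chr9:106178840-106178927, plus strand) within Wdr82. Mirlet7a-2 (chr9:41536716-41536811, plus strand) lies within Mir100hg, the host gene of miR-100, whereas Mirlet7c-1 (chr16:77599657-77599750, plus strand) and Mirlet7i (chr10:122985640-122985724, minus strand) have no other RefSeq gene over them. Let-7c-5p and let-7f-5p each arise from more than 1 hairpin, and an array level sums them. Let-7a has more than 1 hairpin as well, Mirlet7a-1 and Mirlet7a-2. RefSeq as used here lists let-7a-5p under Mirlet7a-1 only, and its level is not taken as that of 1 hairpin. The table used gives gene spans only, so exon or intron is not stated here.

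Every member was detected on 16 of 16 arrays. Each is read by 2 probes with 10 spots each, and all 180 member spots of every array were well above background, with 0 saturated. Levels below are log2 scaled signal, the summed probe intensity of a miRNA after division by the 75th percentile of the array over the miRNAs detected on all arrays. Levels of different members are not compared, since probes differ in brightness.

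After this scaling, the family as a whole was present at closely similar levels in all 4 groups, and OVA/OVA had the lowest mean. Without scaling, the median difference of the members between OVA/OVA and PBS/PBS was -1.21, beside -1.11 for all miRNAs tested. The mean of the 9 log2 levels was 12.75 ± 0.165 (SD, n = 6) for OVA/OVA arrays and 12.92 ± 0.107 (SD, n = 4) after DEX. PBS/OVA arrays had 12.92 ± 0.049 (SD, n = 4) and PBS/PBS arrays 12.83 ± 0.039 (SD, n = 2). The OVA/OVA arrays ran from 12.47 (replicate 1) over a median of 12.75 to 12.98 (replicate 5) and overlapped with all other groups.

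**Figure D1:**
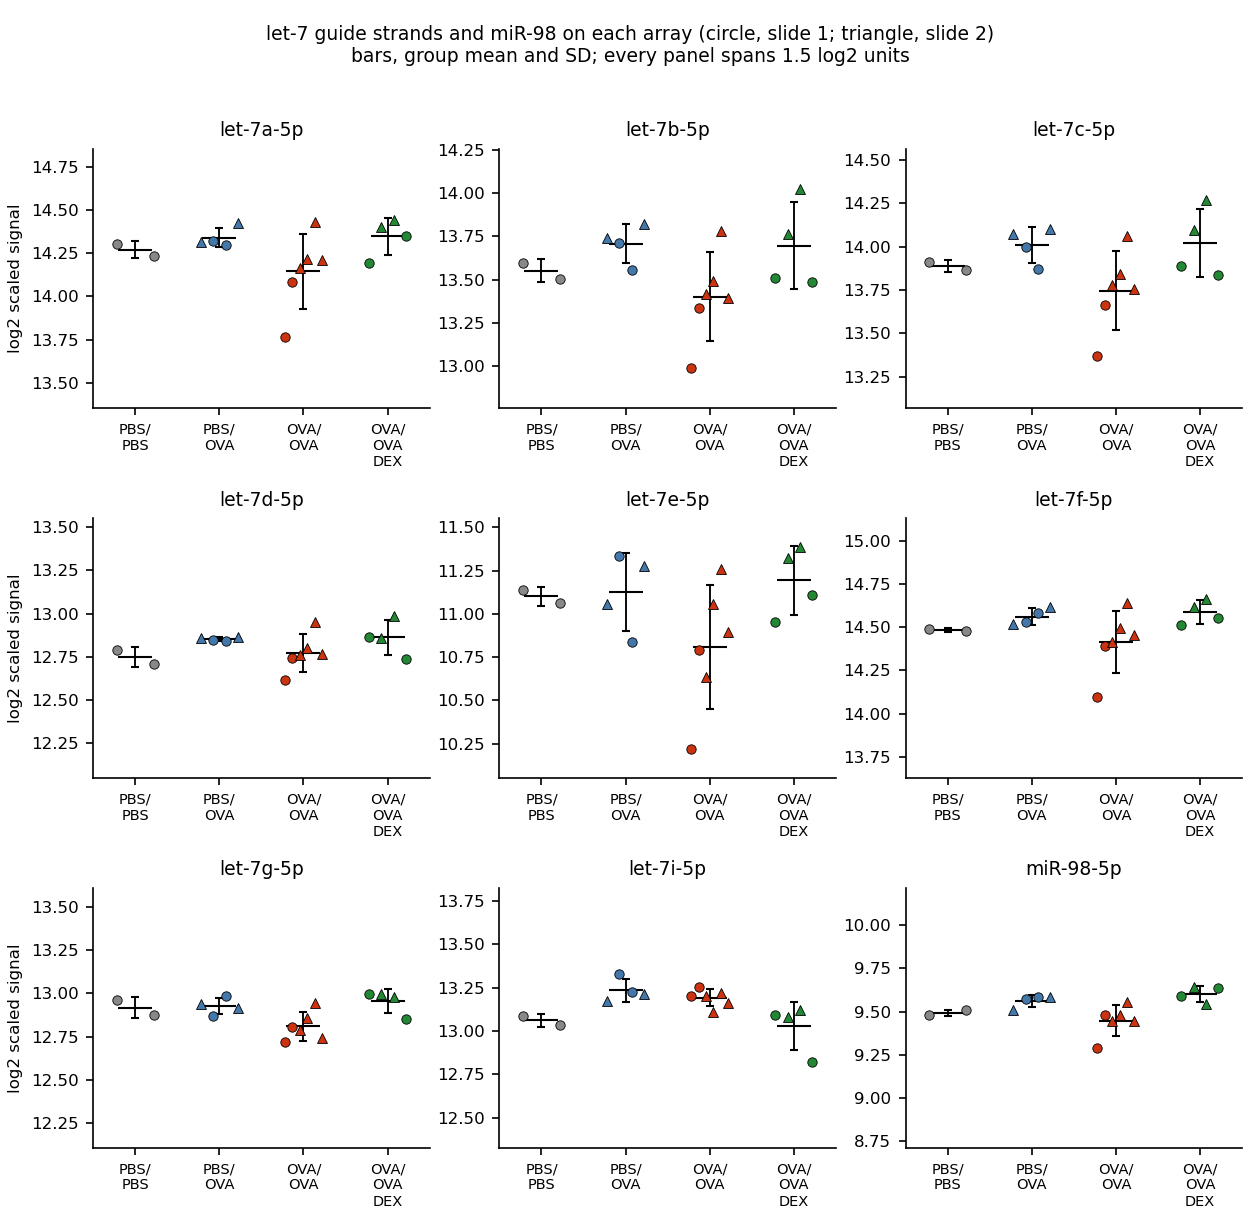
Log2 scaled signal of the 9 family members (y axis) on each of the 16 arrays, by group (x axis), with circles for slide 1, triangles for slide 2 and bars for the group mean and SD. The lowest point of let-7a, b, c, d, e, f, g and miR-98 is OVA/OVA replicate 1, and for let-7i it is OVA/OVA DEX replicate 4 at 12.82.

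Among the members of the chromosome 13 cluster, let-7a-5p was measured at 14.31 and 14.23 in PBS/PBS, at 14.31, 14.32, 14.30 and 14.42 in PBS/OVA, at 13.77, 14.19 and 14.43 (lowest, median, highest) in OVA/OVA and at 14.20, 14.40, 14.44 and 14.35 in OVA/OVA DEX. For let-7f-5p the values were 14.49 and 14.48, then 14.52, 14.53, 14.58 and 14.62, then 14.10, 14.44 and 14.64, and in OVA/OVA DEX 14.51, 14.62, 14.66 and 14.55. Let-7d-5p varied least of these 3, at 12.79 and 12.71 in PBS/PBS, 12.86, 12.85, 12.84 and 12.86 in PBS/OVA, 12.61, 12.76 and 12.95 in OVA/OVA and 12.87, 12.86, 12.99 and 12.74 in OVA/OVA DEX. In each case the OVA/OVA range enclosed most arrays of the other groups, and none of the 3 passed the test in any comparison. Let-7f-5p also comes from chromosome X, and let-7a has a hairpin on chromosome 9 as well.

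Let-7b-5p and let-7c-5p, neighbours on chromosome 15, moved together from array to array. Let-7b-5p was at 13.60 and 13.50 in PBS/PBS, 13.74, 13.71, 13.56 and 13.82 in PBS/OVA, 12.99, 13.41 and 13.78 in OVA/OVA and 13.51, 13.76, 14.03 and 13.49 in OVA/OVA DEX. Let-7c-5p was at 13.91 and 13.86, then 14.07, 14.00, 13.87 and 14.10, then 13.37, 13.77 and 14.06, and in OVA/OVA DEX 13.89, 14.10, 14.27 and 13.84. Their means were lower in OVA/OVA than in PBS/OVA, by 0.31 for let-7b-5p (SE 0.137, adjusted p = 0.102) and by 0.27 for let-7c-5p (SE 0.119, adjusted p = 0.103), which did not pass the test. The Pearson correlation between them was 0.99 over the 16 arrays, which share scaling and RNA load, and let-7c-5p also comes from chromosome 16. A high correlation was not particular to neighbours. With the members of other chromosomes, let-7b-5p had correlations from 0.02 (let-7i-5p) to 0.92 (let-7a-5p). Let-7b-5p and let-7c-5p differ from each other at only 1 base, and whether the probes of each read the other was not tested.

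Let-7e-5p, the member with the widest spread, lies in a cluster with miR-99b and miR-125a. It was at 11.14 and 11.06 in PBS/PBS, 11.05, 11.33, 10.84 and 11.28 in PBS/OVA, 10.22, 10.84 and 11.26 in OVA/OVA and 10.95, 11.32, 11.39 and 11.11 in OVA/OVA DEX. OVA/OVA was lower than OVA/OVA DEX by 0.38 (SE 0.173, adjusted p = 0.0761), the largest difference of any member in any comparison, and the groups overlapped. Its residual SD was 0.278 on the log2 scale, against 0.063 for miR-98-5p and 0.166 for the median of all miRNAs detected on all arrays.

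For the members that passed a test, the changes were small and the spread was small too. MiR-98-5p was at 9.48 and 9.51 in PBS/PBS and at 9.51, 9.57, 9.58 and 9.58 in PBS/OVA. In OVA/OVA it was at 9.29, 9.46 and 9.55 (lowest, median, highest), and in OVA/OVA DEX at 9.59, 9.64, 9.54 and 9.64. All but 1 of the OVA/OVA DEX arrays lay above every OVA/OVA array, and the mean was lower in OVA/OVA by 0.15 (SE 0.054, adjusted p = 0.0277), so that OVA/OVA DEX was 1.11-fold higher. Without OVA/OVA replicate 1 the difference was -0.12 (adjusted p = 0.0513), and without OVA/OVA DEX replicate 2 or 4 it was -0.14 (adjusted p = 0.0761 and 0.0582). It was called in 26 of 36 alternatives. With the summed signal of the other miRNAs as the scale it was -0.04 (adjusted p = 0.714). With normexp background correction it was -0.09 (adjusted p = 0.485), and with the deposited processed values -0.17 (adjusted p = 0.114). Let-7g-5p was at 12.96 and 12.87 in PBS/PBS and 12.94, 12.87, 12.98 and 12.91 in PBS/OVA. It was at 12.72, 12.79 and 12.95 in OVA/OVA and at 12.99, 13.00, 12.98 and 12.85 in OVA/OVA DEX. The mean was lower in OVA/OVA by 0.15 (SE 0.057, adjusted p = 0.0461), and quantile normalization turned this difference to 0.02. It stayed called only where PBS/OVA replicate 2, OVA/OVA replicate 4 or 5, or OVA/OVA DEX replicate 4 was the array left out.

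Let-7i-5p was the 1 member whose mean was higher in OVA/OVA than in OVA/OVA DEX. It was at 13.09 and 13.04 in PBS/PBS and at 13.17, 13.33, 13.23 and 13.21 in PBS/OVA. In OVA/OVA it was at 13.11, 13.20 and 13.26, and in OVA/OVA DEX at 13.09, 13.08, 13.12 and 12.82. The 6 OVA/OVA arrays were all higher than both PBS/PBS arrays, and only 1 of the OVA/OVA DEX arrays, replicate 3, reached above the lowest OVA/OVA array. OVA/OVA was higher than OVA/OVA DEX by 0.16 (SE 0.064, adjusted p = 0.0441), or 1.12-fold, but the sign turned without scaling between arrays (-0.13), with scaling by control spots (-0.38) and with the percentile taken over all miRNAs (-0.06). Without OVA/OVA DEX replicate 4 the difference was 0.09 (adjusted p = 0.146). The call was kept only where PBS/OVA replicate 1 or 2, OVA/OVA replicate 4, or OVA/OVA DEX replicate 1 or 3 was the array left out, and without any other single array it was lost. Its 2 probes gave 0.25 and 0.10.

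Counted over the family, OVA/OVA had the lower mean for 7 of 9 members against PBS/PBS (9 of 9 without scaling), for 9 of 9 against PBS/OVA and for 8 of 9 against OVA/OVA DEX, but quantile normalization left 2 of 9 higher against PBS/OVA and 4 of 9 higher against OVA/OVA DEX. Against PBS/PBS, 0 of the 9 members passed the test (adjusted p under 0.05), beside 25.6% of all miRNAs tested. Limma's unadjusted p was under 0.05 for 0 of them as well, beside 41.4% of all, and let-7i-5p was the 1 member whose arrays did not overlap, beside 51.5% of all. Against PBS/OVA, 0 of 9 passed, beside 31.6% of all, and 2 (let-7b-5p and let-7c-5p) had an unadjusted p under 0.05 in limma, beside 45.1%. The arrays overlapped for all 9 members there, while 19.9% of all miRNAs did not overlap. Against OVA/OVA DEX, 3 of 9 passed, beside 53.4% of all. Let-7g-5p and miR-98-5p were lower in OVA/OVA, as were 32.3% of all miRNAs, and let-7i-5p was higher, as were 21.1%. An unadjusted p under 0.05 was found for 6 of 9, beside 60.2%, and 0 of 9 had arrays without overlap, beside 31.2%. As processed here, the share of the members called was below that of all miRNAs in each of these comparisons, which share the OVA/OVA arrays. This order turned with the processing: of 36 alternatives, the members' share was above that of all miRNAs in 2 against PBS/PBS, in 3 against PBS/OVA and in 5 against OVA/OVA DEX. With a change of at least 2-fold required as well, 0 members were called in any comparison, beside 9.77%, 5.26% and 12.8% of all miRNAs in the comparisons above.

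The sizes were small as well. The median difference of the members was -0.11, -0.14 and -0.17 in these comparisons, in the same order, and the median over all miRNAs tested was -0.02, -0.04 and -0.09. Without regard to sign, the median was 0.12, 0.14 and 0.17 for the members and 0.31, 0.30 and 0.36 for all. All 54 of the 95% intervals, 9 members in 6 comparisons, lay within 2-fold either way, but without scaling only 1 of 9 did against OVA/OVA DEX and 0 of 9 against PBS/PBS or PBS/OVA. For all miRNAs tested, the share of intervals within 2-fold was 62.0%, 69.5% and 66.2% in the 3 comparisons of the allergic group, in the order above, and 73.7%, 71.4% and 75.6% for PBS/OVA against PBS/PBS and for the DEX group against PBS/PBS and against PBS/OVA.

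**Figure D2:**
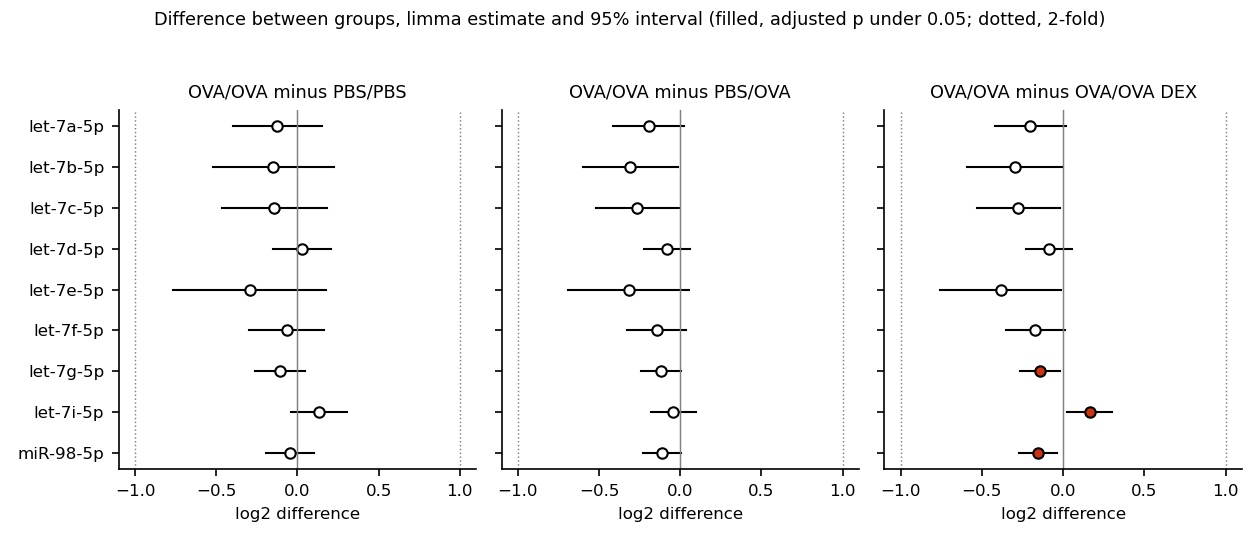
Log2 difference of each member (x axis, limma estimate with its 95% interval) in the 3 comparisons of OVA/OVA with another group; filled points have an adjusted p under 0.05 and dotted lines mark 2-fold. The filled points are let-7g (-0.15), let-7i (0.16) and miR-98 (-0.15) against OVA/OVA DEX, and no interval reaches 2-fold.

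Calls moved with single arrays. Without OVA/OVA replicate 5, 7 of 9 members were called against OVA/OVA DEX, beside 58.6% of all miRNAs, and 3 of 9 against PBS/OVA, beside 35.3%. Without OVA/OVA replicate 1 or OVA/OVA DEX replicate 2, 0 were called against OVA/OVA DEX. Against OVA/OVA DEX 1 was called without PBS/PBS replicate 1 or 2, PBS/OVA replicate 3 or 4, or OVA/OVA replicate 2, 3 or 6. The scaling moved all miRNAs together. Against PBS/PBS the median over all miRNAs tested was -0.02, but -1.11 without scaling, -0.59 with control spots and -0.56 with the percentile of all miRNAs, and 9, 0 and 8 members were called under these settings, beside 59.8%, 1.88% and 51.5% of all miRNAs. Relative to the median of all miRNAs, the median of the members was -0.09, -0.10 and -0.08 in the comparisons with PBS/PBS, with PBS/OVA and with the DEX group, which dividing an array by 1 number can hardly move. It was 0.11, -0.09 and 0.13 with quantile normalization and -0.73, -0.51 and -0.35 with normexp background correction. With normexp the median of the members itself was -0.18, -0.20 and -0.19, while that of all miRNAs was 0.55, 0.31 and 0.16. The normexp offset weighs most on dim miRNAs and dim arrays, and its part in the median of all miRNAs was not tested. The normexp gaps are therefore not read as a larger change of the members.

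Within slides, the differences to OVA/OVA DEX had the same direction on both. On slide 1, with 2 arrays a group, they were -0.16 for let-7g-5p, 0.27 for let-7i-5p and -0.23 for miR-98-5p. On slide 2, with 4 OVA/OVA and 2 OVA/OVA DEX arrays, they were -0.15, 0.07 and -0.11. With the slide as a block, 7 members were called against OVA/OVA DEX, beside 56.4% of all miRNAs, 2 against PBS/OVA, beside 35.3%, and 1 against PBS/PBS, beside 27.1%. The comparison of OVA/OVA with PBS/PBS can be made on slide 1 only, where the difference was between -0.60 (let-7e-5p) and 0.17 (let-7i-5p).

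Among the other 3 groups no member passed the test. Between PBS/OVA and PBS/PBS, 0 of 9 passed the test, beside 0.376% of all miRNAs. All 9 means were higher in PBS/OVA, by 0.01 to 0.17, a direction that did not hold under every scaling: with the percentile over all miRNAs 0 of 9 were higher. The arrays of these groups did not overlap for 4 members (let-7d, f and i and miR-98), beside 18.8% of all miRNAs. In limma 0 members had an unadjusted p under 0.05 there, beside 4.51% of all. OVA/OVA DEX against PBS/PBS gave 0 calls, beside 0.0% of all, with 0 members at an unadjusted p under 0.05 in limma, beside 7.14% of all, and differences from -0.03 to 0.14. Here 2 members (let-7f and miR-98) had arrays without overlap, beside 27.1% of all. OVA/OVA DEX against PBS/OVA gave 0 calls, beside 2.26% of all, with 1 member at an unadjusted p under 0.05, beside 22.2%. Of all miRNAs, 1.88% were called lower there and 0.752% passed with at least 2-fold. The member with the low unadjusted p was let-7i-5p, lower in OVA/OVA DEX by 0.21 (SE 0.070, adjusted p = 0.131), and it was the only one of 9 whose arrays did not overlap here, beside 15.4% of all. With the summed signal of the other miRNAs as the scale, 1 member was called in this comparison.

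Relative to the rest of the family on the same array, let-7i-5p stood apart, and this measure needs no scaling between arrays. Its log2 level minus the family mean was 0.23 and 0.23 in PBS/PBS and 0.26, 0.38, 0.36 and 0.23 in PBS/OVA. It was 0.24, 0.44 and 0.73 (lowest, median, highest) in OVA/OVA and 0.25, 0.11, 0.07 and 0.00 in OVA/OVA DEX. The mean was therefore 0.34 higher in OVA/OVA than in OVA/OVA DEX, and the ranges overlapped by 1 array each. Across arrays, its Pearson correlation with the other members was -0.31 to 0.18, while the 28 pairs among the other 8 members had 0.61 to 0.99. The separation was narrower for deviations from the group mean, at -0.11 to 0.41 for let-7i-5p and 0.46 to 0.99 for the 28 pairs. These values are descriptions, since the arrays share scaling and RNA load, and the levels also reflect the group. Let-7d-5p was the only other member whose relative level did not overlap between OVA/OVA and PBS/PBS, at 0.11 higher in OVA/OVA. PBS/PBS has only 2 arrays, and for scaled levels 51.5% of all miRNAs did not overlap there. No share over all miRNAs is available for relative levels.

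**Figure D3:**
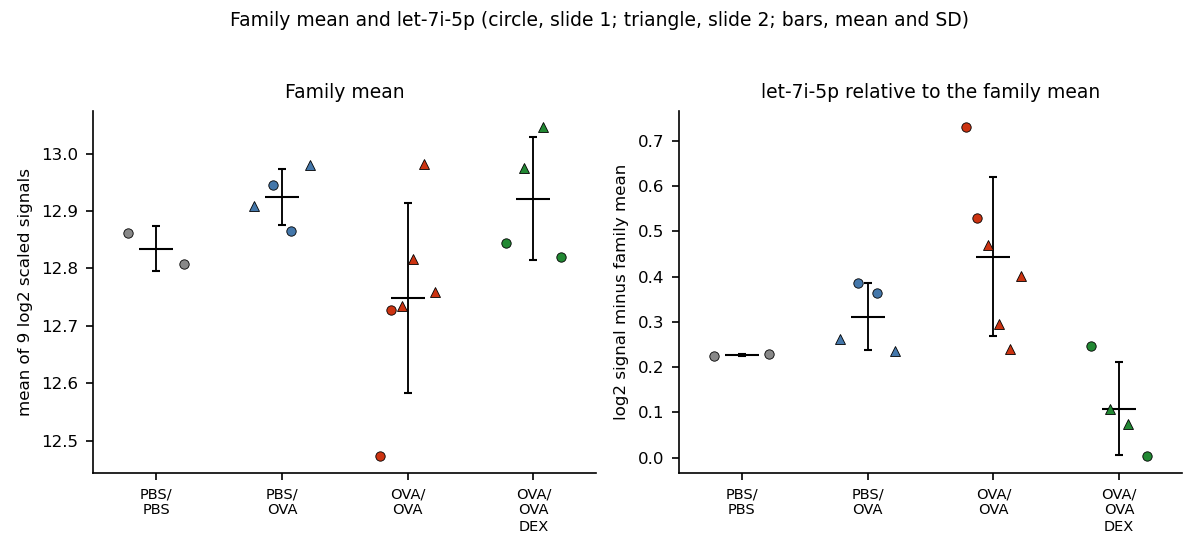
Mean log2 scaled signal of the 9 members (left) and log2 level of let-7i-5p minus that mean (right) on each array, by group, with circles for slide 1, triangles for slide 2 and bars for mean and SD. The family mean is lowest (12.47) and the relative level of let-7i highest (0.73) on OVA/OVA replicate 1.

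Each hairpin also gives a 3p strand, which is mostly degraded. Of 7 such strands of the family on the array, 4 were tested. Let-7g-3p was detected on 1 of 16 arrays, let-7i-3p on 2 and let-7c-1-3p on 0. Compared with OVA/OVA DEX, 2 of the 4 were lower in OVA/OVA, beside 32.3% of all miRNAs called lower there, and 0 passed against PBS/PBS or PBS/OVA.

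Let-7d-3p, the partner of let-7d-5p, is shown with its own seed in capitals, since it does not share the seed of the family.
let-7d-3p: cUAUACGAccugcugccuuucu

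Let-7d-3p was at 6.73 and 6.87 in PBS/PBS, 6.88, 6.95, 7.09 and 7.76 in PBS/OVA, 5.89, 6.63 and 7.61 (lowest, median, highest) in OVA/OVA and 7.69, 7.45, 8.03 and 7.24 in OVA/OVA DEX. All 4 OVA/OVA DEX arrays were above 5 of the 6 OVA/OVA arrays. The mean was lower in OVA/OVA by 0.92 (SE 0.285, adjusted p = 0.0154), and OVA/OVA DEX was 1.89-fold higher. Without OVA/OVA DEX replicate 3 the adjusted p was 0.0517.

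How far the strands of this hairpin differed in their change depended on the background correction. As processed here, let-7d-5p differed by -0.09 (SE 0.066, adjusted p = 0.28), and the gap between the strands, 5p minus 3p within an array, was 5.26 ± 0.242 (SD, n = 4) after DEX and 6.09 ± 0.499 (SD, n = 6) for OVA/OVA arrays. The PBS/PBS arrays had a gap of 5.94 ± 0.157 (SD, n = 2), those of PBS/OVA 5.68 ± 0.400 (SD, n = 4). With normexp background correction the differences to OVA/OVA DEX lay close together, at -0.11 for let-7d-3p (adjusted p = 0.714) and -0.10 for let-7d-5p (adjusted p = 0.43).

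Let-7a-1-3p was at 5.48 and 5.03 in PBS/PBS, 5.33, 5.03, 5.44 and 5.65 in PBS/OVA, 5.13, 5.24 and 5.43 in OVA/OVA and 5.86, 5.56, 5.85 and 5.73 in OVA/OVA DEX. The arrays of OVA/OVA and OVA/OVA DEX did not overlap, beside 31.2% of all miRNAs, whereas PBS/OVA replicate 4 (5.65) lay above the lowest OVA/OVA DEX array (5.56). OVA/OVA was lower than OVA/OVA DEX by 0.49 (SE 0.122, adjusted p = 0.00554), but with normexp background correction the sign turned, to 0.16. The strand was dim, with an unscaled signal of 17.1 to 64.5 per array. Let-7b-3p and let-7f-1-3p differed by 0.32 (SE 0.552, adjusted p = 0.659) and 0.24 (SE 0.320, adjusted p = 0.559) and did not pass.

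**Figure D4:**
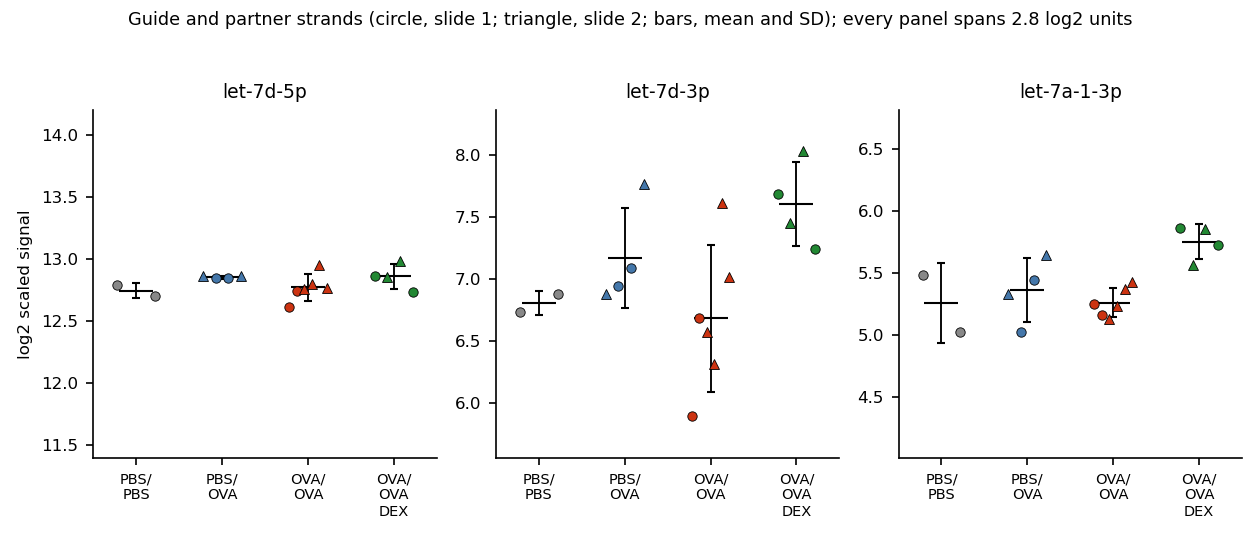
Log2 scaled signal of let-7d-5p, let-7d-3p and let-7a-1-3p on each array, by group, on axes of equal length (2.8 log2 units), with circles for slide 1, triangles for slide 2 and bars for mean and SD. The OVA/OVA DEX arrays of let-7d-3p (7.24 to 8.03) lie above all but 1 OVA/OVA array, while those of let-7d-5p overlap.

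Several let-7 hairpins lie beside those of other miRNAs, which were read on the same arrays. These are miR-99a, miR-99b, miR-100, miR-125a and miR-125b (5p strands), the partners of let-7 hairpins in the chromosome 16, 17 and 9 clusters. In OVA/OVA, 5 of 5 were lower than in PBS/OVA, beside 16.9% of all miRNAs called lower, and 4 of 5 were lower than in OVA/OVA DEX, beside 32.3%. Against PBS/PBS, 2 of 5 (miR-100-5p and miR-125b-5p) were lower, beside 12.4%, and both calls were lost without PBS/PBS replicate 1 or 2, at adjusted p up to 0.0851 and 0.144. The list was chosen with earlier results of these data known.

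MiR-100-5p, next to Mirlet7a-2, had a mean of 8.39 ± 0.066 (SD, n = 6) in OVA/OVA, against 8.65 ± 0.065 (SD, n = 4) with DEX and 8.69 ± 0.060 (SD, n = 4) for PBS/OVA arrays. It was lower in OVA/OVA by 0.31 than in PBS/OVA (SE 0.053, adjusted p = 0.000802) and by 0.26 than in OVA/OVA DEX (SE 0.053, adjusted p = 0.00153). Its arrays did not overlap in either comparison, beside 19.9% and 31.2% of all miRNAs. MiR-125a-5p, of the let-7e cluster, was lower than in PBS/OVA by 0.41 (SE 0.113, adjusted p = 0.0176). MiR-125b-5p was lower by 0.28 (SE 0.071, adjusted p = 0.0106), miR-99b-5p by 0.25 (SE 0.085, adjusted p = 0.0374) and miR-99a-5p by 0.19 (SE 0.067, adjusted p = 0.0489). Leaving out single arrays kept miR-100-5p, miR-125a-5p and miR-125b-5p called against PBS/OVA, at adjusted p up to 0.0391, whereas miR-99a-5p and miR-99b-5p reached 0.138 and 0.102. Against OVA/OVA DEX, miR-100-5p and miR-125b-5p stayed called (adjusted p up to 0.0124 and 0.0415), and miR-125a-5p and miR-99a-5p reached 0.274 and 0.126. With normexp background correction miR-125b-5p alone was called against PBS/OVA (-0.32, adjusted p = 0.0156) and OVA/OVA DEX (-0.28, adjusted p = 0.0215), while miR-100-5p was at -0.10 (adjusted p = 0.292) and -0.09 (adjusted p = 0.485).

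The 5 other miRNAs most like the family mean over the 16 arrays were let-7d-3p (Pearson r 0.81), miR-328-3p (0.76), miR-151-5p (0.74), miR-200b-3p (0.71) and miR-365-3p (0.70). The correlation uses the same scaled arrays and says nothing about shared control. Of these, miR-328-3p had a mean of 5.74 in OVA/OVA and 6.56 after DEX (adjusted p = 0.0276), and miR-200b-3p, an epithelial miRNA, differed by -0.09 (adjusted p = 0.19).

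As a share of the summed mouse miRNA signal on an array, which needs no scaling, the 9 members made up 16.0% ± 1.49 (SD, n = 6) for OVA/OVA and 16.6% ± 1.57 (SD, n = 4) for OVA/OVA DEX. It was 18.2% ± 0.979 (SD, n = 4) for PBS/OVA and 17.6% ± 0.179 (SD, n = 2) for PBS/PBS. The lowest arrays were OVA/OVA replicate 1 at 13.3% and OVA/OVA DEX replicate 1 at 14.3%. This is a share of signal, not of molecules. The denominator moved too, since miR-451 of red cells alone held 17.9% ± 1.43 (SD, n = 4) of the signal after DEX, against 9.63% ± 1.95 (SD, n = 6) in OVA/OVA. With miR-451 left out of the denominator, a choice made after seeing the data, the share was 17.7% ± 1.80 (SD, n = 6) for OVA/OVA and 20.2% ± 1.58 (SD, n = 4) for OVA/OVA DEX, beside 20.9% ± 0.519 (SD, n = 4) for PBS/OVA and 20.5% ± 0.368 (SD, n = 2) for PBS/PBS. On that basis all 6 OVA/OVA arrays (14.8% to 20.1%) lay below every PBS/PBS and PBS/OVA array, and they overlapped with those of OVA/OVA DEX, where replicate 1 was at 17.8%.

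**Figure D5:**
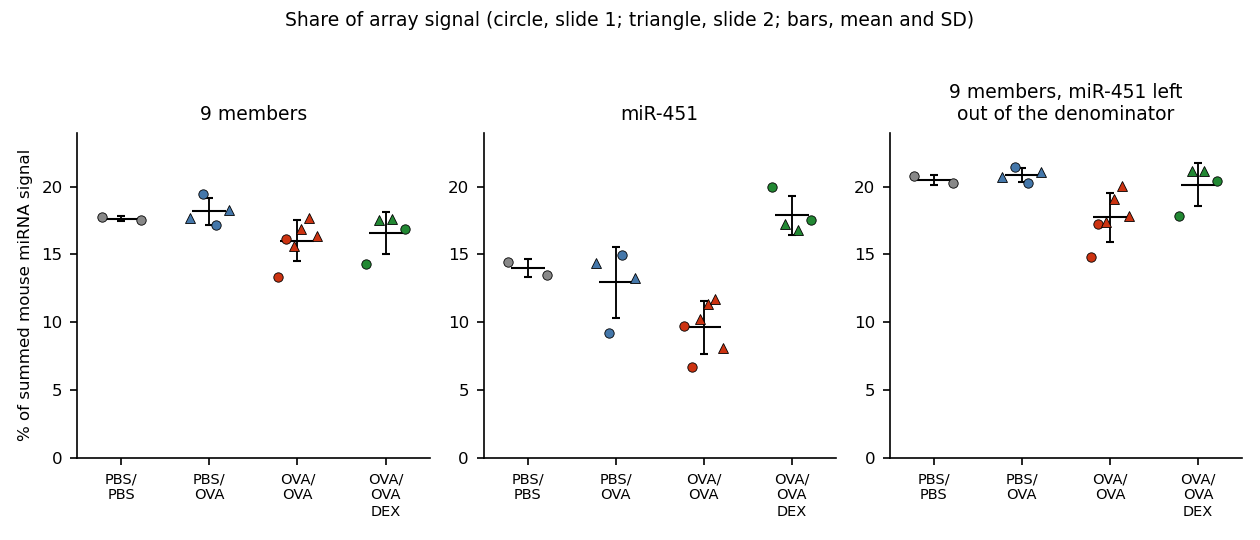
Percent of the summed mouse miRNA signal (y axes from 0) on each array that came from the 9 members (left), from miR-451 (middle) and from the 9 members with miR-451 left out of the denominator (right), by group, with bars for mean and SD. OVA/OVA DEX arrays have a miR-451 share of at least 16.8%, above every other array, and OVA/OVA arrays have 6.65% to 11.7%.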

How the data were processed

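The authors hybridised whole-lung total RNA (samples with an RNA integrity number below 8 were excluded) to Agilent mouse miRNA arrays and extracted the scans with Feature Extraction 10.7.3.1, per the file headers. The deposited intensity values are background-subtracted spot signals with no normalization between arrays. The authors also deposited log2 processed values, whose normalization is not given in the sources used here. They were used as an alternative only, for 143 miRNAs. These matched the scanner output within 0.15 per array after a shift for each array and a constant shift.

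Control spots and outlier spots (6 to 18 of the member spots per array) were dropped, spots were averaged within probes, and probes were summed within miRNAs. The scaling factor of an array was the 75th percentile of the 206 miRNAs that every array detected. Signals under a floor of 1.82 were set to it and log2 was taken. The number of arrays limits the precision.

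Limma 3.58.1 in R 4.3.3 fitted 4 group means over 16 arrays (lmFit, eBayes) with Benjamini-Hochberg adjustment over 266 miRNAs, and was tested on simulated data. A call is an adjusted p under 0.05. Other steps used Python 3.11.15, numpy 2.4.6, pandas 2.3.3, scipy 1.17.1 and matplotlib 3.10.9. Named miRNAs are the members, the 3p strands of their hairpins, 5 cluster partners, and the 5 other tested miRNAs most correlated with the family mean; miR-451 and marker lists are given beside results. Members, lists and tests were chosen with earlier results of these data known. Alternatives covered scaling, background (normexp on median signals, offset 50), signal summary, detection filter, floor, slide, replicate number, brightness, variance model, groups in the fit, test, threshold and left-out arrays. The normexp offset is added to every spot before scaling and weighs most on dim miRNAs and dim arrays. Sequences and coordinates are from RefSeq (GRCm38.p6). The array design names mm9, so no coordinate of the array files was used.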

Additional observations from a re-analysis of the deposited data

Results flagged for a closer look

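For let-7i-5p, OVA/OVA DEX replicate 4 (12.82) was far below the other 3 arrays of its group, of which the nearest was at 13.08. For let-7g-5p the same array, OVA/OVA DEX replicate 4, was at 12.85, with the nearest other array of the group at 12.98. Both passed Dixon's critical value of 0.829 for 4 arrays, with a gap over range of 0.877 and 0.858. These were 2 of 30 sets of arrays examined, and chance flags about 1 in 20.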

How the results depend on the processing

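Under the alternatives, 2556 of the recomputed values stayed on their side of the threshold or within their spread. The others were classed as moved (149), weaker (175), stronger (90) or reversed (9). Opposite signs, given below, are not all in the last class. The numbers of members called against PBS/PBS (0 as reported) were 9 without scaling, 8 with the percentile over all miRNAs, 1 with the summed signal and 1 with the slide as a block. Against PBS/OVA (0 as reported) they were 1 with the percentile over all miRNAs, 3 with quantile normalization, 1 with the summed signal, 9 with control spots and 2 with the slide as a block, and 0 to 3 with single arrays left out. Against OVA/OVA DEX (3 as reported) they were 0 without scaling, 1 with the summed signal, 8 with control spots, 0 with normexp, 0 with the deposited values, 7 with the slide as a block, 0 with only the groups compared, 0 with a 2-fold threshold, 0 without OVA/OVA replicate 1 and OVA/OVA DEX replicate 1 (chosen after seeing the data), and 0 to 7 with single arrays left out. For OVA/OVA DEX against PBS/OVA (0 as reported) the summed signal gave 1.

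Against PBS/PBS the sign was the opposite in 11 of 36 alternatives for let-7d-5p (-1.07 without scaling, -0.51 with the percentile over all miRNAs), in 3 of 36 for let-7i-5p (-0.97 unscaled), in 13 of 35 for let-7a-1-3p (-1.09 unscaled) and in 1 of 36 for miR-98-5p. Against OVA/OVA DEX it turned with quantile normalization for let-7g-5p (0.021), let-7c-5p (0.026) and let-7d-5p (0.09), for let-7d-5p also with the summed signal (0.027), for let-7i-5p without scaling (-0.13), with control spots (-0.38) and with the percentile over all miRNAs (-0.057), and for let-7a-1-3p with normexp (0.16). The cause was not tested, except that dividing an array by 1 number shifts all its miRNAs alike.

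The family share with normexp was 12.6% for OVA/OVA, 13.7% for OVA/OVA DEX, 15.2% for PBS/OVA and 15.4% for PBS/PBS. These shares depend on array brightness, since the normexp offset of every spot enters the denominator and weighs more on dim arrays. As processed in the main text but without miR-451 in the denominator, the share was 17.7%, 20.2%, 20.9% and 20.5% in that order. In PBS/PBS it was 17.8% both with the total gene signal and with the mean over probes.

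Replicate numbers did not pair the arrays: the deviations of same-numbered arrays had correlations of -0.78 to 0.41 in 18 pairs, 3 of them over 0.1. With the replicate block, 6 members were called against OVA/OVA DEX, 1 against PBS/OVA and 0 against PBS/PBS, beside 52.3%, 28.9% and 19.5% of all miRNAs.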

Other observations

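The deposited processed table has rows for let-7 star strands (the older name of the 3p strands). The let-7a* row lay within 0.15 on the log2 scale of the let-7a guide-strand row of the same table on 16 of 16 arrays, and the let-7d* row lay that close to its guide-strand row on 12 of 16. The corresponding numbers were 3 of 16 for let-7b*, 3 for let-7f*, 2 for let-7i* and 0 for let-7g*. The rows of the 9 members themselves followed the scanner output with a shift of -3.34 to -3.33, once a shift for each array had been taken out. They did not follow the unscaled output by a constant. The median difference of the members between OVA/OVA and PBS/PBS was -0.12 in the deposited values. It was -1.21 without scaling and -0.11 as scaled here. The 3p values given in this text are from the scanner output.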
